A study of Homo sapiens with 20 samples.

Results

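The 1950 guides described here sit late on one axis and early on the other in the 39 numbered grids of the A375 guide library. They were chosen by a rule on guide numbers, set with earlier results of these data known. Each grid holds 11 rows of 11 consecutive guide numbers, so that a guide has a row and a column. The late-column block takes rows 2 to 6 with columns 7 to 11, and the late-row block takes rows 7 to 11 with columns 2 to 6. Each block has 25 guides per grid and 975 guides in all, of 4719 guides in the grids, 6211 guides in the A375 table and 63973 guide names in the whole series. The blocks mirror each other: the guide at row 3 and column 11 has its mirror at row 11 and column 3, which gives 25 mirrored pairs per grid.

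The study followed guide RNAs through pooled growth screens by amplicon sequencing of genomic DNA. The groups used here are A375 cells at day 14 and A375 cells at day 0, with 3 libraries each from separate infection replicates. All of them carry RfxCas13d, a Cas13d nuclease induced with doxycycline, received the guide library by lentivirus and were selected with puromycin. The labels call the screen a dual titration, do not say what either axis of the grids stands for or whether the cells are 1 clone, and give each day its own batch name, so that day and batch cannot be told apart. Sequences and target genes of the guides were not used here, so guides are named by number.

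Cas13d is an RNA-guided ribonuclease. It binds a CRISPR RNA, pairs the spacer of that RNA with a complementary transcript and cuts RNA through its HEPN domains, without cutting DNA. In a pooled growth screen the guide cassette integrated in the genome serves as a barcode: cells whose guide impairs growth leave fewer descendants, and the share of that cassette in the DNA falls with time. A375 is an established human melanoma line.

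Values are the authors' normalised signal. After 1 was subtracted, the values of a library were whole multiples of a fixed step, which gave 746951, 873999 and 494672 recovered reads at day 14 and 1342178, 868384 and 1684142 at day 0. The median guide of the late-column block had 32, 33 and 20 recovered reads in the day 14 libraries and 220, 142 and 276 in the day 0 libraries. The median late-row guide had 31, 39 and 22 recovered reads in the day 14 libraries, against 220, 141 and 276 in the day 0 libraries. At day 14 between 81 and 94 late-column guides and between 62 and 76 late-row guides per library lay at the lowest level of that library. The files do not show whether such a guide had a read or none, so the size of those falls is uncertain. Across the 1950 guides, log2 signal correlated at 0.812 between each pair of day 14 libraries and at 0.463 to 0.535 between day 0 libraries.

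The opening comparison asked how the guides of each block changed from day 0 to day 14. Most guides of both blocks were depleted. The late-column block had a median signal of 32.5, 26.3 and 26.8 in the 3 day 14 libraries, against 184.8, 183.9 and 207.4 in the day 0 libraries. The late-row block had 31.5, 30.9 and 29.4 at day 14, against 184.8, 182.7 and 207.4 at day 0. Every day 14 median lay below every day 0 median in both blocks. Mean log2 signal of the late-column block was 4.70 ± 0.09 at day 14 and 7.55 ± 0.09 at day 0 (SD, n = 3 each), a change of -2.85. For the late-row block it was 4.84 ± 0.06 at day 14 and 7.53 ± 0.10 at day 0 (SD, n = 3 each), a change of -2.69.

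By limma with Benjamini-Hochberg adjustment over all 6211 guides, 770 of the 975 late-column guides fell, 4 rose and 201 did not pass the adjusted threshold of 0.05. Of the 975 late-row guides, 712 fell, 1 rose and 262 did not pass. Of all guides, 51.2% were called lower and 1.63% higher. The shares called lower were 79.0% in the late-column block and 73.0% in the late-row block. In 80.9% of late-column guides and 77.3% of late-row guides every day 14 library lay below every day 0 library, against 55.1% of all guides. With libraries scaled by a trimmed mean over all guides, whose day 14 factors lay -1.41 from those of day 0 on the log2 scale, 510 late-column and 502 late-row guides fell and 137 and 176 rose. The median change was -2.85 over late-column guides and -2.77 over late-row guides, with quartiles at -4.41 and -1.28 and at -4.32 and -0.94.

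The guides with the lowest changes among those above the lowest level in every day 14 library were alike in size in the blocks. Their day 14 values lay near that level, which limits how low such a change can be. With a pseudocount of 10 the changes of the 6 guides named here lay between -4.20 and -3.85. Without the filter the lowest changes were -6.93 in the late-column block and -7.11 in the late-row block. In the late-column block uid_2472, at row 5 and column 8 of grid 21, had a signal of 2.97, 5.60 and 4.88 at day 14, against 262.4, 183.9 and 300.8 at day 0. Its change was -5.82 ± 0.50 (SE, adjusted p = 1.19e-06, limma). The guides uid_1746 in grid 15 and uid_2802 in grid 24 followed at -5.77 and -5.75, both also in column 8. In the late-row block uid_3018, at row 11 and column 4 of grid 25, had 3.95, 5.60 and 3.58 at day 14, against 219.0, 374.6 and 186.4 at day 0. Its change was -5.85 ± 0.50 (SE, adjusted p = 1.21e-06, limma). The guides uid_2524 and uid_2514, both of grid 21, were at -5.82 and -5.78. For these 6 guides, picked for their low changes, every day 14 value lay below every day 0 value, as in 55.1% of all guides.

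The 5 guides called higher lay in 4 grids. The guide uid_1229, at row 2 and column 8 of grid 11, had 750.0, 320.7 and 162.6 at day 14, against 146.3, 155.6 and 66.8 at day 0. Its change was 1.56 ± 0.52 (SE, adjusted p = 0.0224, limma), and it was 0.99 without day 14 replicate 1 (adjusted p = 0.0959, limma). The guide uid_3682 in grid 31 had 529.5, 261.7 and 299.5 at day 14, against 217.3, 174.9 and 110.9 at day 0. The other late-column guides were uid_2585 in grid 22 with a change of 0.90 and uid_0141 in grid 2 with a change of 0.86, the last named after its values were seen. For all 5 guides every day 14 value was above every day 0 value, as in 23 of the 1950 guides of both blocks and 242 of all 6211 guides. The 5 were picked as called higher, so this separation adds no support. The only late-row guide called higher was uid_1290, at row 8 and column 3 of grid 11, with 359.2, 218.0 and 213.0 at day 14 against 166.4, 109.2 and 119.9 at day 0 and a change of 0.98. These counts moved with single libraries: without day 0 replicate 3 limma called 0 guides higher in either block, with 3 late-column and 2 late-row guides higher at an unadjusted p under 0.05. Without day 0 replicate 2 the late-column block had 1. Without day 14 replicate 1, 2 or 3 the late-row block had 5, 7 and 5, and without day 14 replicate 3 the late-column block had 9. The late-row guides with the next highest changes, among those called and above the lowest level, were lower at day 14: uid_0951 in grid 8 at -0.83 and uid_0234 in grid 2 at -0.89. Over 15 alternatives these passed in 6 and 7.

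Within the blocks the loss deepened along both axes, and the step from number 3 to number 4 was larger along the columns than along the rows. In the late-row block the mean change per column was -1.73, -2.10, -2.94, -3.14 and -3.55 from column 2 to column 6. In the late-column block the mean change per row was -2.13, -2.65, -2.74, -3.11 and -3.62 from row 2 to row 6. Along their late axes the blocks were flatter. The late-column block went through -2.21, -2.44, -3.01, -3.14 and -3.46 from column 7 to column 11, and the late-row block through -2.26, -2.45, -2.70, -2.95 and -3.12 from row 7 to row 11. Each mean covers 195 guides, and these profiles are values with no test. In both blocks the range over the early numbers was wider than over the late numbers, with 1.49 against 1.25 in the late-column block and 1.82 against 0.86 in the late-row block. At the borders of the blocks, column 7 averaged -2.21 within rows 2 to 6, against -1.96 in column 6, and row 7 averaged -2.26 within columns 2 to 6, against -1.91 in row 6.

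Set against their neighbours, the blocks lay between the places early on both axes, which changed by -1.45 on average, and those late on both axes, which changed by -4.46. Of the 975 guides late on both axes 466 reached the lowest level in some day 14 library, so the size of that fall is uncertain. The change of the late-column block was lower than that of the places early on both axes in 33 of 39 grids and higher than that of the places late on both axes in 39 of 39. For the late-row block these counts were 37 and 37. Over all 4 contrasts in all grids, the block was called lower in 44.9% and higher in 48.7%, by limma with adjustment over the 156 values, a test added after the data were seen. These shares pool contrasts called only lower with contrasts called only higher, so neither share is a background for a single contrast. The largest gap to the places early on both axes was -2.77 for the late column, in grid 33, and -3.04 for the late row, in grid 19.

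The next comparison asked whether the axes are alike, with each guide set against its mirror within the same library, so that the scaling of libraries cancels. Averaged over all grids the blocks differed little. Late column minus late row was -0.04, -0.14 and -0.25 on the log2 scale in the day 14 libraries, against 0.01, 0.02 and 0.01 in the day 0 libraries. All 3 day 14 values lay below all day 0 values, and their SD of 0.11 was close to their mean of -0.14. The change in this difference was -0.16.

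Single grids were far from this average, in both directions. By limma over the 39 grids, the late-column block was lower than the late-row block in 19 grids and the late-row block was lower in 13, and 7 did not pass the adjusted threshold of 0.05. This test covers all grids, so the shares of 48.7% and 33.3% are themselves the background. Differences ranged from -2.36 to 2.33 with a median size of 0.83, and 15 grids were over 1 in size. At day 0 the same difference lay between -0.23 and 0.46 over all grids and libraries. At day 14 it lay below every day 0 library in 21 grids (53.8%) and above every day 0 library in 15 grids (38.5%). Across the 39 grids, which share libraries but not guides, the difference correlated at 0.954 to 0.963 between day 14 libraries.

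The lowest values belonged to grids 33, 20, 13 and 28, where the late-column block was depleted more than the late-row block. In grid 33 the late-column block had a geometric mean signal of 4.67, 5.66 and 5.21 at day 14, against 177.6, 182.2 and 178.4 at day 0. Its late-row block had 24.8, 25.9 and 28.2 at day 14, against 170.0, 172.1 and 192.3 at day 0. The blocks changed by -5.12 and -2.76, a difference of -2.36 ± 0.12 (SE, adjusted p = 7.12e-08, limma). All 25 mirrored pairs had the lower change in the late column, and 12 of them passed the test. In this grid 14 late-column guides and 1 late-row guide reached the lowest level in some day 14 library, and with a pseudocount of 10 the difference was -1.33. Over the 11 pairs with both guides above that level in every day 14 library, a choice that itself rests on day 14 values, it was -1.85.

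Grid 20 differed by -2.15 ± 0.15 (SE, adjusted p = 1.19e-06, limma), with blocks at -4.64 and -2.49. Its guides were scarcer from the start, with a geometric mean of 100.5, 104.0 and 117.9 in the late-column block and of 87.8, 80.0 and 85.6 in the late-row block at day 0. In grid 20, 20 late-column and 10 late-row guides reached the lowest level in some day 14 library. A pseudocount of 10 gave a difference of -1.35, and the 3 pairs above that level gave -2.79. Grid 13 differed by -2.05 ± 0.14 (SE, adjusted p = 1.19e-06, limma) with blocks at -4.29 and -2.24. This difference was -1.13 at a pseudocount of 10 and -0.93 over its 11 pairs above the lowest level.

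Grid 28 had the fewest guides at the lowest level among these 4 grids, with 3 in the late-column block and 0 in the late-row block. Its late-column block had 32.2, 25.7 and 24.1 at day 14, against 183.0, 188.9 and 214.2 at day 0. Its late-row block had 89.9, 111.7 and 97.8 at day 14, against 194.2, 182.2 and 205.2 at day 0. All 25 pairs had the lower change in the late column. The difference was -1.88 ± 0.17 (SE, adjusted p = 5.22e-06, limma).

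The highest values belonged to grids 10, 30, 5 and 16, where the late-row block was depleted more than the late-column block. In grid 10 the late-column block kept a geometric mean of 119.3, 105.5 and 110.6 at day 14, against 190.4, 177.8 and 222.5 at day 0. The late-row block had 24.5, 22.8 and 23.2 at day 14, against 203.1, 203.6 and 215.6 at day 0. All 25 pairs had the lower change in the late row, and 15 passed the test. The difference was 2.33 ± 0.11 (SE, adjusted p = 6.46e-08, limma). Grid 30 was close to it in both blocks, at -0.75 in the late column and -3.00 in the late row, with a difference of 2.25 ± 0.10 (SE, adjusted p = 6.46e-08, limma) and 14 pairs called.

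Grid 5 differed by 1.63 ± 0.15 and grid 16 by 1.49 ± 0.14 (SE, both with an adjusted p of 5.85e-06, limma). With a pseudocount of 10 these differences were 0.99 and 0.89. In grid 16 the late-column block had 22.2, 17.6 and 25.9 at day 14, against 183.7, 185.7 and 218.7 at day 0, and the late-row block had 6.42, 7.26 and 9.26 at day 14, against 179.9, 180.6 and 217.8 at day 0. The day 14 and day 0 values did not overlap in either block.

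The grids nearest to 0 were grid 36 at 0.05 ± 0.16 (SE, adjusted p = 0.764, limma) and grid 2 at 0.22 ± 0.12 (SE, adjusted p = 0.0949, limma). The blocks of grid 36 changed by -3.84 and -3.89, those of grid 2 by -0.47 and -0.70. In grid 2, 7 pairs had the lower change in the late column and 18 in the late row. Every day 14 difference of grid 2 lay above every day 0 difference. Without day 14 replicate 1 grid 2 passed, at 0.29 (adjusted p = 0.0353, limma). In grid 36 single pairs still went either way, 12 with the lower change in the late column and 13 in the late row. In that grid 10 late-column and 5 late-row guides reached the lowest level in some day 14 library. Over the 13 pairs of grid 36 above that level, a choice that itself rests on day 14 values, the difference was 0.75. Over all its pairs it was 0.06 with a pseudocount of 10, and the median of its pair differences gave 0.01. Grid 36 passed the threshold in 2 of 12 alternatives. What the guides at the lowest level do to its value was not tested.

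The same asymmetry recurred in grids whose numbers lie 20 apart. Of 19 such couples of grids, 17 had differences of the same sign. In 12 couples both grids passed the test, 11 of them in the same direction, and grids 1 and 21 in opposite directions at 0.44 and -0.32. Examples were grids 10 and 30 at 2.33 and 2.25, grids 13 and 33 at -2.05 and -2.36, grids 4 and 24 at -0.96 and -0.94 and grids 17 and 37 at -0.75 and -0.69. The widest gap lay between grids 16 and 36, at 1.49 and 0.05. Differences within a couple were 0.48 apart on average, against 1.38 for all other couplings of grids. Pearson's r over the 19 couples was 0.872 and Spearman's rho 0.828, given as a description of grids that share libraries. That grids 20 apart resemble each other was already known from earlier results of these data, so this likeness is not independent of it. Grid 20 has no partner among the 39 grids.

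The asymmetry of the blocks was set beside that of the edges, where one axis stays at number 1. Columns 7 to 11 of row 1 changed by -0.95 on average and rows 7 to 11 of column 1 by -0.30. In grid 10 these edges stood at 0.36 and -2.54, and in grid 33 at -1.35 and 0.89, the same order as in their blocks. The edge difference, row 1 less column 1, was below 0 in 27 of all 39 grids, with a mean of -0.65. Signs of edges and blocks can match through this lean alone. Of the 32 grids with a called difference between the blocks, 21 had an edge difference of the same sign and 11 of the opposite sign. In 8 of the 11 the edge was lower in row 1 while the block was lower in the late rows. Grid 32 shows this: its edges changed by -1.82 in row 1 and 0.47 in column 1, and its blocks by -1.89 in the late column and -3.30 in the late row. Its partner grid 12 had edges at -1.47 and 0.59 and blocks at -2.07 and -2.90. Grids 19 and 39 were alike in this, with edges at -2.40 and 0.18 and at -1.60 and 0.41 and with block differences of 0.82 and 1.34. Over the 39 grids the block difference correlated at 0.427 with the edge difference, at 0.700 with that of the mirrored places early on both axes and at 0.189 with that of the places late on both axes. Late on both axes 466 of 975 guides reached the lowest level in some day 14 library, against 34 of 975 early on both axes. What this does to the correlations was not tested. The correlations are descriptions over grids that share libraries.

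Each block was then compared with the sum of its edges, that is, the change at a place less the changes at the start of its row and of its column plus the change at row 1 and column 1. The late-column block lay below this sum in 25 of 39 grids and the late-row block in 29 of 39, by limma, against 72.4% of the 156 grid and zone values tested. The late-column share was thus below the background and the late-row share close to it. The places early on both axes lay below the sum in 25 grids and those late on both axes in 34. The medians were -1.95 in the late-column block and -2.22 in the late-row block. The lowest late-column value was -3.90 in grid 13 and the lowest late-row value -4.66 in grid 6. Grid 10, with its strong loss in late rows, stood at 0.49 ± 0.45 in the late column and 0.23 ± 0.44 in the late row (SE, adjusted p = 0.342 and 0.658, limma), and its late-row loss of -3.14 was not called different from the sum of its edges. In grid 33 the values were -3.86 ± 0.43 and -3.04 ± 0.43 (SE, adjusted p = 9.36e-10 and 7.88e-08, limma). The guide at row 1 and column 1 enters all 25 places of a block, so its error is shared by them.

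The mirrored places were also averaged over grids. At 8 of the 25 places of the blocks the late column was lower and at 1 the late row was lower, by limma over all 55 mirrored places, where the shares were 34.5% and 5.45%. The blocks were thus close to the background, and of the 30 mirrored places outside them 11 were lower in the late column and 2 in the late row. All 8 places of the blocks had an early number of 2 or 3, and the 11 outside them had an early number of 1, 2 or 3. The largest difference of all lay outside the blocks, at row 1 with column 11 and its mirror, at -1.34. Within the blocks the strongest was row 3 with column 11, at -3.39, against -2.46 at row 11 with column 3, a difference of -0.93 ± 0.14 (SE, adjusted p = 0.000259, limma). It was below 0 in 25 of 39 grids. Per library that difference was -1.13, -0.55 and -1.04 at day 14, against -0.01, 0.11 and -0.05 at day 0. Over the 5 places with early number 2 the mean difference was -0.40 and with early number 3 it was -0.56. With early number 4 it was 0.20, with 5 it was 0.03 and with 6 it was -0.07. The place lower in the late row was row 8 with column 4, at -2.87, against -2.22 at row 4 with column 8, a difference of 0.65 ± 0.10 (SE, adjusted p = 0.000259, limma). Without day 14 replicate 2 or day 14 replicate 3, 3 and 4 places were lower in the late row.

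Guide by guide, 142 of the 975 mirrored pairs of the blocks had a lower change in the late column and 104 in the late row, by limma over all 2145 mirrored pairs of the grids, where the shares were 12.1% and 8.72%. Another 729 pairs did not pass. The median difference was -0.16 and the median size 1.27, against a median size of 1.00 over all mirrored pairs. Differences ranged from -5.41 to 5.72. The day 14 differences lay below all day 0 differences in 261 pairs, against 23.5% of all mirrored pairs, and above them in 205, against 18.1%. These counts depended on single day 0 libraries: without day 0 replicate 1, 2 or 3 the counts were 46, 36 and 52 for the late column and 29, 18 and 34 for the late row.

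The largest called differences among pairs above the lowest level show how far mirrored guides can part. In grid 30 the guide uid_3530 at row 2 and column 10 had 225.4, 406.6 and 229.8 at day 14, against 164.7, 190.4 and 176.7 at day 0. Its mirror uid_3610 at row 10 and column 2 had 15.8, 37.8 and 8.75 at day 14, against 373.5, 240.6 and 307.6 at day 0. The difference was 4.77 ± 0.58 (SE, adjusted p = 0.0021, limma). In the same grid uid_3560 and uid_3580, at row 5 with column 7 and its mirror, differed by 4.63. In grid 39 uid_4616 and uid_4666, at row 2 with column 7 and its mirror, differed by 4.47.

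In the other direction uid_1726 in grid 15, at row 3 and column 10, had 12.8, 2.53 and 3.58 at day 14, against 163.0, 180.1 and 159.5 at day 0. Its mirror uid_1796 had 368.1, 155.1 and 57.9 at day 14, against 212.3, 181.4 and 245.5 at day 0. The difference was -4.59 ± 0.71 (SE, adjusted p = 0.00287, limma), in a grid whose blocks as a whole differed by -0.30 and did not pass. The mirror's own day 14 values straddled its day 0 values. The pair uid_0623 and uid_0673 of grid 6, at row 2 with column 7 and its mirror, differed by -4.53, and uid_2319 and uid_2389 of grid 20, at row 2 with column 9 and its mirror, by -4.48.

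The change of each block was also tested per grid. The late-column block fell in 37 of 39 grids and the late-row block in 36 of 39, by limma over the 273 grid and zone means, of which 65.2% were lower and 4.03% higher. With trimmed-mean scaling 30 late-column and 28 late-row blocks were lower, and 7 late-column and 10 late-row blocks were higher. The late-column block of grid 33 was lowest at -5.12 and that of grid 38 highest at 0.10. Among late-row blocks grid 16 was lowest at -4.67 and grid 11 highest at 0.04. The late-column block of grid 11 changed by -0.92. In that block 12 of 25 guides were called lower, a share no higher than the 51.2% over all guides. The difference between the blocks of grid 11 was -0.96 ± 0.16 (SE, adjusted p = 0.000376, limma). Its late-row block had a geometric mean of 172.7, 189.1 and 162.3 at day 14, against 158.7, 166.6 and 184.8 at day 0. Over the 39 grids the changes of the blocks correlated at 0.676, a description of blocks that share libraries and grids.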

How the data were processed

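Guide abundances of 6 A375 libraries were used. The deposited values are signal, scaled by the authors in a way not given in the sources used here. Per the submitters' processing notes, cutadapt 1.13, Bowtie 1.1.2 and GRCh38 were used. With 1 taken off, 100% of values were whole multiples of their library's step, within 0.01 of a step. The log2 signal as deposited, without pseudocount or filter, entered linear models of day in limma 3.58.1 (R 4.3.3), with a variance trend for guides and pairs. A call is a Benjamini-Hochberg adjusted p under 0.05 over all features of its fit. Because of the added 1, recovered reads did not qualify for the count model that was planned, and voom was run in its place as an alternative. Members, rules and tests were chosen with earlier results of these data known. The contrasts of blocks with other zones were added after the data were seen. By rule, the text names 10 grids (4 lowest and 4 highest called, 2 nearest 0), 6 pairs and 12 guides (3 lowest and 3 highest called in each direction or block, above the lowest level in all day 14 libraries). Other grids and guides are named as partners, extremes or exceptions. The models were also run on simulated data, with guides drawn around their day 0 means. That setting did not model the lowest level, so it does not speak to guides at that level. The labels describe separate infections. Of the other tables only guide names were counted. PCR reads without molecular identifiers are not independent molecules.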

Additional observations from a re-analysis of the deposited data

How the results depend on the processing

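Scaling moved counts of single guides and grid blocks and cancels in every difference between mirrored places. A trimmed mean over all guides called 510 late-column guides lower, 137 late-column and 176 late-row guides higher, and 7 late-column and 10 late-row grid blocks higher, and turned uid_0951 to 0.58 and uid_0234 to 0.52. Total signal called 57 and 72 guides and 3 and 4 grid blocks higher, and the median of the guides after the grids called 3 late-row guides higher. Late-row guides called higher numbered 2 each with a pseudocount of 10, a replicate block, a robust variance prior and voom on recovered reads, an alternative chosen after seeing the data. With a pseudocount of 10 the blocks changed by -2.17 and -2.06. With a library left out, guides called higher numbered between 0 and 9 in the late-column block and between 0 and 7 in the late-row block, pairs between 36 and 178 lower in the late column and between 18 and 131 lower in the late row, and places lower in the late row between 1 and 4. Grid 36 ranged between -0.10 and 0.17, below 0 without day 14 replicate 2 and, at -0.04, without day 0 replicate 2. It passed the threshold with summed signal at 0.50 and over its 13 pairs above the lowest level at 0.75, the latter a choice that rests on day 14 values. The cause of these moves was not tested.

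Over all alternatives run, the grids called numbered between 16 and 20 for a lower late column and between 10 and 16 for a lower late row, and the 8 called grids named above kept their direction and passed the threshold. Same-numbered libraries deviated together with r between 0.0036 and 0.0287 over all guides, so the numbers were not taken to pair the samples. Of the 3 day 14 libraries 2 correlated best with their own number. The replicate block gave 18 grids with a lower late column and 14 with a lower late row, and with it uid_0951 and uid_0234 did not pass. Late-row guides called higher were the only count it moved by over 1.5 times. The minimum mean signal of 50 kept 1932 of the guides. The planned count model was not run, and the pair of uid_2319 had no value at that minimum.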
